A study of Mus musculus with 8 samples.

Results

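Of the 27998 genes in the deposited tables, 9 carry or serve the uptake of sugar, iron and calcium by the absorptive cells of the small intestine, and their transcripts were followed from progenitors to mature enterocytes and between mice with and without an intestinal enhancer of Ctnnb1. They were taken from the tables by symbol and not by a cut on a measured value, and all 9 were found. Earlier results of these data were known when they were chosen. The sugar genes were Slc5a1 (ENSMUSG00000011034), Slc2a2 (ENSMUSG00000027690), Slc2a5 (ENSMUSG00000028976) and Khk (ENSMUSG00000029162). The calcium genes were S100g (ENSMUSG00000040808) and Trpv6 (ENSMUSG00000029868), and the iron genes were Cybrd1 (ENSMUSG00000027015), Slc11a2 (ENSMUSG00000023030) and Slc40a1 (ENSMUSG00000025993).

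Enterocytes move nutrients from the gut lumen to the blood through an entry protein in the brush border and an exit protein in the basolateral membrane. These proteins appear as cells leave the crypt and climb the villus, and most of them are used more in the duodenum and jejunum than in the ileum, where enterocytes take up bile acids instead. Iron and calcium uptake are further adjusted to the needs of the body, through hypoxia-inducible factors and vitamin D respectively.

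The cells had been sorted as EpCAM+ DAPI- cells, that is living cells with an epithelial surface protein and with no further step against other cell types, from small intestinal crypts of adult female mice of C57BL/6 background. KO mice were Ctnnb1 Δi.enh animals, homozygous for a germline deletion of ieCtnnb1, an enhancer upstream of the β-catenin gene, so that the enhancer was missing in every tissue. The control mice, labelled WT, carried the enhancer as a reporter transgene at the H11 locus, and were not plain wild-type mice. Cells of several animals had been pooled, the labels name 4 samples per group, and 1 matrix per group was analysed. Hence no test between groups was possible, and every interval below is a 95% interval of counting error only, for 1 pool against 1 pool.

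The WT matrix held 134876816 unique molecular identifiers (UMIs, each 1 captured transcript) in 15987 barcodes and the KO matrix 123794575 in 12763 barcodes. After removal of barcodes with fewer than 200 genes or over 30% mitochondrial UMIs, 13095 WT cells (median 6675 UMIs) and 8658 KO cells (median 8691.5 UMIs) remained. Among them 29 barcodes occurred in both matrices. Clustering, with the 9 genes kept out of the genes that formed the clusters, gave 23 clusters, of which 16 could be named from marker genes, and the names were rebuilt here. Mature enterocytes (mEC-like) were 1725 WT and 1456 KO cells in 4 clusters, led by genes such as Fabp1 and Rbp2 (cluster 0), Fabp6 and Slc10a2 (cluster 14), Reg1 and Gsta1 (cluster 17) and Ada and Clca4a (cluster 20). Immature enterocytes (imEC-like, cluster 15, led by Car4 and Arg2) were 347 WT and 328 KO cells. Cluster 20 came almost wholly from KO (7 WT and 206 KO cells). No cluster was named as crypt base columnar (CBC) stem cells. Cluster 4 had 5 CBC markers among its first 50 genes, but stayed unnamed because its first 10 genes held 1 CBC marker and 1 of another class. Cluster 8, led by Sox4, Cenpf, Olfm4 and Ascl2, stayed unnamed for a like reason, with 4 transit-amplifying markers and 5 of another class, and is set beside the enterocytes as an unnamed progenitor cluster. KO cells were the deeper ones in both classes, with a median of 8785 UMIs against 5404 in mEC-like cells and 15058 against 7700 in imEC-like cells. Levels are therefore given as CPM, the UMIs of a gene per 1000000 UMIs, both summed over the cells of a class.

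The start regions of 3 members are shown because they belong to the genes with the largest, an intermediate and a small difference between the groups. Each line gives the 250 bases before the annotated start from RefSeq, build GRCm38.p6, read 5′ to 3′ on the strand of the gene. Capitals mark the letters CTTTG or CAAAG, which are the core read by Tcf/Lef factors on one strand and a part of the site of Hnf4 factors on the other, so that a match cannot be given to either family. The S100g window is chrX:162964600-162964849 on the minus strand, the Slc2a2 window is chr3:28697653-28697902 on the plus strand and the Slc5a1 window is chr5:33103969-33104218 on the plus strand.
S100g: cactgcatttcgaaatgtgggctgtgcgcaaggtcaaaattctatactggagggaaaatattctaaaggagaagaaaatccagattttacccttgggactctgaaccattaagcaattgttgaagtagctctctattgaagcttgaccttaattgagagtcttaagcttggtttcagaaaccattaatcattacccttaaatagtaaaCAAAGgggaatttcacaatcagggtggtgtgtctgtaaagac
Slc2a2: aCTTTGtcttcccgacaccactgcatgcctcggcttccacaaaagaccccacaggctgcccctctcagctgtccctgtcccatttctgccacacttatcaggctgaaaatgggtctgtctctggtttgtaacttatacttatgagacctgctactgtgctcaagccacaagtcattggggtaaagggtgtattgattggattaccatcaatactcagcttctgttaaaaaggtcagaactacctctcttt
Slc5a1: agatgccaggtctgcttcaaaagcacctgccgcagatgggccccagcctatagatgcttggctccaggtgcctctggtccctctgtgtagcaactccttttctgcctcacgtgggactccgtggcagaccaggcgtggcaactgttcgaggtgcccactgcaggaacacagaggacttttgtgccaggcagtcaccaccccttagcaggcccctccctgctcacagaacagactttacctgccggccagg
S100g and Slc2a2 had 1 match each and Slc5a1 had 0. The letters occur in 48.6% of 32851 promoters of this length, so a match is common and says nothing about binding. Promoter sequences were at hand for 7 of the 9 members, and those of Slc40a1 and Slc11a2 were not analysed here.

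Slc5a1 encodes SGLT1, the sodium-coupled carrier that brings glucose and galactose in from the lumen (chromosome 5, 33104219 to 33162870, plus strand, GRCm38). In WT cells it stood at 204 CPM in imEC-like and 558 CPM in mEC-like cells (543 to 573), and in KO cells at 123 and 497 CPM (485 to 509). Slc5a1 was thus higher in mature than in immature enterocytes of both groups, by 1.45 log2 units in WT and 2.02 in KO. In mEC-like cells its log2 ratio of KO to WT was -0.17 (-0.22 to -0.12), and in imEC-like cells it was -0.73. Within cluster 0 Slc5a1 was 728 CPM in WT and 702 CPM in KO, within cluster 14 it was 248 and 250 CPM, and within cluster 17 it was 337 and 268 CPM. Of these clusters, only the last showed a gap at least as wide as that of the class. Single cells of cluster 0 spread alike in the 2 pools, the 10th, 50th and 90th percentiles of cell CPM being 178, 671 and 1489 in WT and 243, 667 and 1521 in KO.

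Khk encodes ketohexokinase, which phosphorylates fructose inside the cell (chromosome 5, 30921431 to 30931248, plus strand). Its level was 351 CPM in WT imEC-like and 573 CPM in WT mEC-like cells, and 330 and 519 CPM in KO. Of the 4 sugar genes it differed least between the stages, by 0.71 log2 units in WT and 0.65 in KO. Its KO to WT log2 ratio was -0.14 (-0.20 to -0.09) in mEC-like cells and -0.09 (-0.20 to 0.03) in imEC-like cells, the latter interval including no difference. In cluster 0 Khk was 765 CPM in WT and 767 CPM in KO, a ratio of 0.00 log2 units, and its cell percentiles were 246, 711 and 1331 against 292, 738 and 1221 CPM.

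Slc2a2 encodes GLUT2, the facilitative carrier through which glucose and fructose leave on the blood side (chromosome 3, 28697903 to 28731359, plus strand). No other member was as tightly tied to the mature stage: it stood at 10.1 CPM in WT imEC-like and 171 CPM (163 to 180) in WT mEC-like cells, a step of 4.08 log2 units, and at 7.85 and 99.0 CPM (93.7 to 105) in KO, a step of 3.66. The KO to WT log2 ratio in mEC-like cells was -0.79 (-0.90 to -0.68), and in imEC-like cells -0.36 with an interval from -1.09 to 0.38. Slc2a2 was lower in KO in the mature clusters that held most of it, with 246 against 169 CPM in cluster 0 and 102 against 50.8 CPM in cluster 17. In cluster 14 it was low in both, at 10.8 CPM (21 UMIs) and 4.69 CPM (20 UMIs).

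Slc2a5 encodes GLUT5, the fructose carrier of the brush border (chromosome 4, 150119283 to 150144169, plus strand). It was 13.6 CPM in WT imEC-like and 40.5 CPM (36.6 to 44.8) in WT mEC-like cells, against 7.06 and 20.2 CPM (17.8 to 22.8) in KO. Its mature log2 ratio of -1.002 (-1.23 to -0.77) sat at the limit of 1 log2 unit used below for counting, and its immature ratio was -0.94. Slc2a5 was also lower in KO outside the enterocytes, by 1.05 log2 units in Paneth (PC-like) and 1.06 in goblet (GC-like) cells, whereas Khk was higher there, by 0.46 and 0.68.

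S100g encodes calbindin-D9k, the small buffer that ferries calcium through the cytoplasm of enterocytes and a classical vitamin D target (chromosome X, 162961992 to 162964599, minus strand). It differed more between the groups than any other member in mEC-like cells, at 387 CPM (375 to 400) in WT and 98.4 CPM (93.1 to 104) in KO, a log2 ratio of -1.98 (-2.07 to -1.88). Only 1.23% of the 9561 genes measured there had a lower ratio. In imEC-like cells S100g stood at 137 and 62.4 CPM, a log2 ratio of -1.14. From the immature to the mature stage it was higher by 1.49 log2 units in WT and by 0.66 in KO.

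The direction for S100g depended on which mature cells were compared. In cluster 0 it was 543 CPM in WT and 90.7 CPM in KO (log2 ratio -2.58), and in cluster 17 it was 275 and 66.3 CPM (-2.05). In cluster 14, the cells led by the ileal bile acid genes Fabp6 and Slc10a2, the order turned, with 23.5 CPM in WT (46 UMIs) and 127 CPM in KO (543 UMIs), a log2 ratio of 2.43 (1.998 to 2.90). Whether these ratios differ from cluster to cluster beyond the variation between animals was not tested.

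The transcript was not spread evenly over cells. In WT cluster 0, 397 of 1038 cells (38.2%) held at least 1 UMI of S100g, 124 (11.9%) at least 5 and 83 (8.00%) at least 10, up to 217 UMIs in 1 cell, and the tenth of cells with most S100g carried 82.2% of its UMIs. In KO cluster 0, 157 of 745 cells (21.1%) held at least 1, 32 (4.30%) at least 5 and 13 at least 10, with a highest value of 77. Both pools therefore had many cells with none and a few with much, and the high cells were fewer in KO although its cells were deeper. In cluster 14 the picture was the other way round, with 31 of 288 WT cells (10.8%) and 134 of 396 KO cells (33.8%) above 0, and 1 against 31 cells at 5 or more. Because a few cells carried most of the UMIs, the counting intervals for S100g are too narrow.

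**Figure D1:**
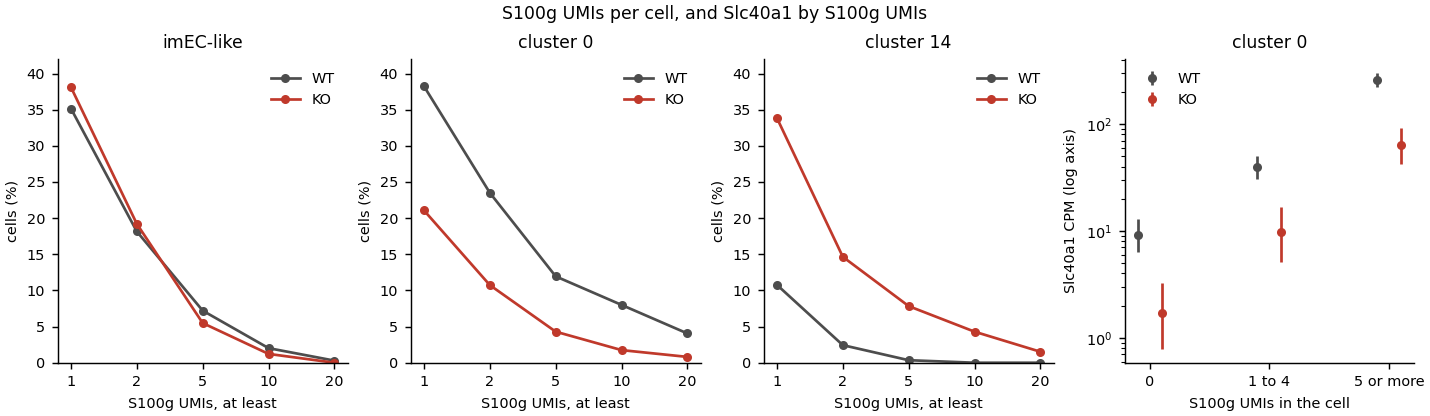
The first 3 panels plot the percent of imEC-like, cluster 0 and cluster 14 cells with at least the number of S100g UMIs on the x axis (WT grey, KO red), and the last plots Slc40a1 CPM on a log axis, with 95% Poisson intervals, in cluster 0 cells with 0, 1 to 4 and 5 or more S100g UMIs. The WT line lies above the KO line in cluster 0 and below it in cluster 14, and within each group Slc40a1 is highest in the cells with most S100g (260 CPM in WT, 63.4 CPM in KO).

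Thinning every cell to 2000 UMIs removes the gap in depth, at the cost of 193 WT and 235 KO mEC-like cells that were shallower. After thinning, 20.2% of WT and 9.58% of KO mEC-like cells held S100g (30.7% and 21.7% unthinned), and within cluster 14 the shares were 3.93% and 13.4%. GC-like cells held it in 1.71% of cells in either group, with 431 and 92 cells left out. Unthinned, their shares were 5.79% and 16.5%, at median depths of 6124 and 18159.5 UMIs. In PC-like cells the thinned shares were 2.35% in WT and 2.17% in KO, and in cluster 8 they were 2.36% and 5.06%. Whether such shares are background or expression was not tested. For Slc5a1 the thinned shares were 61.9% and 61.4% in mEC-like cells against 4.71% and 5.88% in GC-like cells, and 83.1% and 80.5% against 18.2% and 41.2% unthinned.

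Trpv6, the apical calcium channel (chromosome 6, 41620624 to 41636405, minus strand), was all but unseen. It had 3 UMIs over all kept WT cells, in 1 mEC-like, 1 transit-amplifying (TAC-like) and 1 unnamed cell, and 0 UMIs in KO, where a count of 0 allows up to 0.0256 CPM. No comparison of Trpv6 could be made at this depth.

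Cybrd1 encodes DCYTB, the ferric reductase of the duodenal brush border (chromosome 2, 71117923 to 71142926, plus strand). In enterocytes it was near the floor, with 11 UMIs (1.15 CPM) in WT and 4 UMIs (0.312 CPM) in KO mEC-like cells and 1 UMI in each group of imEC-like cells. Most of its UMIs lay in PC-like cells. PC-like cells held 385 of 475 Cybrd1 UMIs in WT (81.1%) and 146 of 179 in KO (81.6%), at 5.13 CPM (4.63 to 5.66) and 3.04 CPM (2.56 to 3.57), a log2 ratio of -0.76. They were also the deepest named class and so held a large part of all UMIs. Over all kept cells Cybrd1 stood at 3.62 CPM in WT and 1.53 CPM in KO. The transcript was found in 357 WT PC-like cells (10.8%) and 133 KO PC-like cells (11.9%), at median depths of 22925 and 44901 UMIs. After thinning to 2000 UMIs the shares were 1.28% (42 cells) and 0.543% (6 cells), against 0.214% (4 cells) and 0 of 936 cells in GC-like cells, with 19 and 16 PC-like cells left out. All 3 PC-like clusters showed it, at 5.13, 4.35 and 6.33 CPM in WT and 3.10, 3.08 and 2.73 CPM in KO, and among the named classes none had a higher level, although the intervals of small classes reach it. The unnamed cluster 6, with shallow cells led by Jun, Thbs1 and Ephb3, had 12.9 CPM on 20 UMIs in WT and 12.5 CPM on 7 UMIs in KO.

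Slc11a2 encodes DMT1, which carries ferrous iron with protons into the cell (chromosome 15, 100387898 to 100425072, minus strand). It stood at 28.9 CPM in imEC-like and 37.9 CPM (34.1 to 42.01) in mEC-like cells of WT, and at 19.8 and 22.2 CPM (19.7 to 24.9) in KO. The step between the stages was small, 0.39 log2 units (0.04 to 0.75) in WT and 0.16 in KO. Slc11a2 was lower in KO in each mature cluster with enough cells, at -0.68 in cluster 0, -0.80 in cluster 14 and -1.54 in cluster 17, for -0.77 (-1.002 to -0.54) in the class. The cluster 17 value rests on 52 UMIs in WT and 12 in KO.

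Slc40a1 encodes ferroportin, the iron exporter of the basolateral membrane (chromosome 1, 45908068 to 45926523, minus strand). In WT it was as high in imEC-like (42.5 CPM) as in mEC-like cells (42.4 CPM, 38.4 to 46.8), and in KO it was higher in imEC-like (20.6 CPM) than in mEC-like cells (14.2 CPM, 12.2 to 16.4). It was the one member whose highest named class was imEC-like. The mature KO to WT log2 ratio was -1.58 (-1.84 to -1.32), which 3.85% of genes went below, and the immature ratio was -1.04. In cluster 0 Slc40a1 was 48.2 CPM in WT and 7.26 CPM in KO (-2.73), with 156 of 1038 (15.03%) against 29 of 745 cells (3.89%) holding a UMI, while in cluster 14 it was 39.9 and 28.6 CPM (-0.48). After thinning to 2000 UMIs, 6.79% of WT and 1.36% of KO cluster 0 cells held it, against 0.589% and 1.28% of GC-like cells. The KO share was thus close to that of GC-like cells, but above that of PC-like cells, where the shares were 0.397% (13 cells) in WT and 0.0905% (1 cell) in KO.

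Ferroportin transcripts were most frequent in the cells of cluster 0 that held most calbindin-D9k transcript. In WT, Slc40a1 stood at 9.21 CPM in the 641 cells without S100g, at 39.8 CPM in the 273 cells with 1 to 4 UMIs of it and at 260 CPM in the 124 cells with 5 or more, at like median depths (5407, 5900 and 5848.5 UMIs). In KO the same cuts gave sets of 588, 125 and 32 cells, with 1.72, 9.68 and 63.4 CPM at median depths of 9113.5, 10332 and 12348.5 UMIs. The order over the sets was the same in both groups. Since KO cells were deeper, the same number of S100g UMIs stands for a lower level there, so the sets are not matched between the groups and are read within each group only. Slc5a1, Khk and Slc2a2 did not follow it in WT. In the same 3 WT sets Slc5a1 was 771, 677 and 637 CPM, Khk 781, 764 and 687 CPM and Slc2a2 243, 242 and 270 CPM. Slc11a2 was 33.1, 47.6 and 59.6 CPM. In KO cluster 14, where S100g was the higher, Slc40a1 was 24.7, 37.7 and 25.1 CPM over the 3 sets, the last on 7 UMIs.

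Over the classes, 6 members (Slc5a1, Slc2a2, Slc2a5, Khk, S100g and Slc11a2) had their highest level in mEC-like cells in both groups, although for Slc11a2 the interval overlapped that of imEC-like cells. Of the 7 members with enough UMIs in WT, 4 were higher in mEC-like than in imEC-like cells by at least 1 log2 unit, where 5.93% of all genes were, and none was lower by that much, where 3.25% of all genes were. In KO it was 3 of 7 higher (8.18% of all genes) and none lower (8.76%). Against cluster 8 the imEC-like cells of WT had more Slc40a1 (by 3.41 log2 units), S100g (3.31), Slc2a2 (2.92), Khk (2.59), Slc2a5 (2.52) and Slc5a1 (2.003), and Slc11a2 differed least (0.73). The Slc2a2 value rests on 29 and 9 UMIs. In KO these steps were 3.62 for Slc40a1, 1.23 for S100g, 2.12 for Slc2a2, 2.56 for Khk, 2.96 for Slc2a5, 1.53 for Slc5a1 and 0.75 for Slc11a2. Within cluster 8 itself S100g was higher in KO, at 13.9 CPM (94 UMIs) in WT and 26.5 CPM (205 UMIs) in KO. Khk, S100g and Slc40a1 differed more between cluster 8 and imEC-like cells than between imEC-like and mEC-like cells in both groups, with intervals that did not overlap. Slc5a1 did so in WT (2.003 against 1.45), but in KO its later step was the larger (1.53 against 2.02). The other classes were lower but not empty. In TAC-like cells of WT and KO, Khk stood at 135 and 134 CPM, Slc5a1 at 86.6 and 59.5 CPM, S100g at 28.5 and 30.7 CPM and Slc11a2 at 25.1 and 17.1 CPM, the last with intervals that overlapped those of imEC-like cells. In tuft (TC-like) cells Khk stood at 64.3 and 108 CPM, and in GC-like cells Slc5a1 stood at 33.1 and 40.1 CPM and S100g at 10.0 and 13.9 CPM. Among enteroendocrine (EEC-like) cells Slc2a2 had 17 UMIs in WT and 1 in KO, and Khk 39.7 and 86.0 CPM.

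**Figure D2:**
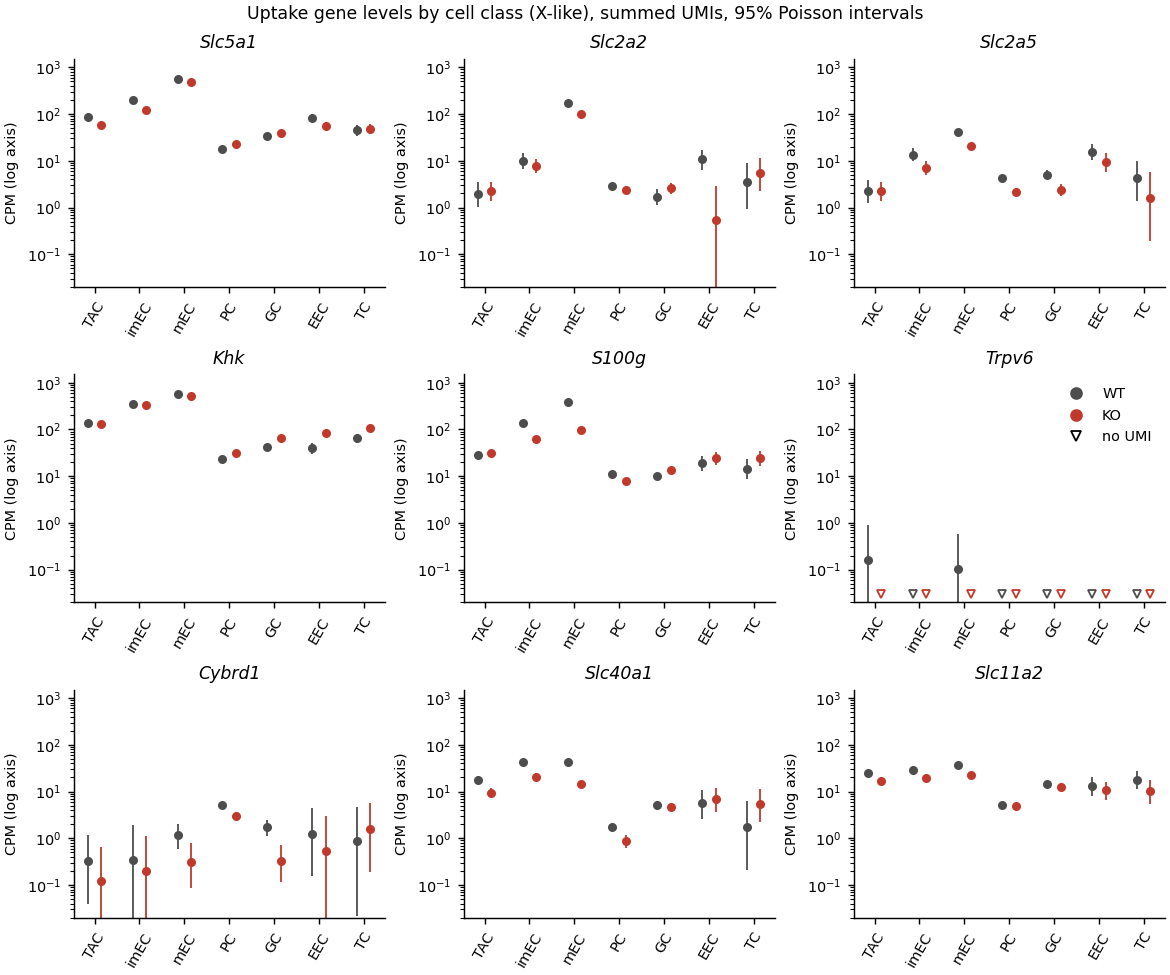
Level of each member in CPM, on a log axis, in each named class (TC is tuft), for WT (grey) and KO (red), with bars for the 95% Poisson interval of the summed UMIs and open triangles where no UMI was found. The sugar genes and S100g are highest in mEC-like cells, and Cybrd1 is highest in PC-like cells. Slc40a1 is as high in imEC-like as in mEC-like cells in WT, and higher in imEC-like cells in KO.

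To set the group differences against all genes, genes with at least 50 UMIs over both groups of a class were compared. In mEC-like cells all 7 such members lay below 0, with a median log2 ratio of -0.79 against -0.40 over all 9561 genes. Lower by at least 1 log2 unit were 3 members (Slc2a5, S100g and Slc40a1) and 19.8% of all genes, and higher by as much were 0 members and 1.85% of all genes. In imEC-like cells the members' median was -0.73 against -0.29 over 7712 genes, with 2 members lower (S100g and Slc40a1, against 14.8% of genes) and 0 higher (1.05%). In cluster 0 it was -0.68 against -0.39, with the same 2 lower (20%) and 0 higher (1.56%), in cluster 14 it was 0.01 over 5 members against -0.39, with 0 lower (21.8%) and S100g higher (2.28%), and in cluster 17 it was -1.20 against -0.13, with 5 lower (11.1%) and 0 higher (2.42%). A fold of this size was thus common among all genes, and the members' counts are taken over at most 7 genes. In cluster 17 the KO side was 109 cells, with 9 UMIs of Slc40a1, 12 of Slc11a2 and 14 of Slc2a5.

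The median of all genes was below 0, and it moved with exon length, from 0.14 in the quartile of shortest genes (up to 2739 bases, with Khk and S100g) to -0.28 (Slc5a1 and Slc2a5), -0.58 (Slc2a2 and Slc11a2) and -0.92 in the longest quartile (Slc40a1). Set against genes of their own length quartile, S100g and Slc2a5 are therefore further below the rest than against all genes. Slc40a1, Slc2a2 and Slc11a2 are nearer, the Slc5a1 difference turns to 0.11, and Khk falls below the median of its quartile. Counted per cell in place of as CPM, Slc5a1 and Khk were higher in KO mEC-like cells (0.50 and 0.53 log2 units), and S100g and Slc40a1 were lower (-1.30 and -0.91). The other members differed less on that scale. Mean UMIs per WT and KO mEC-like cell were 0.946 and 0.871 for Slc2a2, 0.224 and 0.178 for Slc2a5, and 0.209 and 0.195 for Slc11a2. The part of depth and length in these ratios was not tested.

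**Figure D3:**
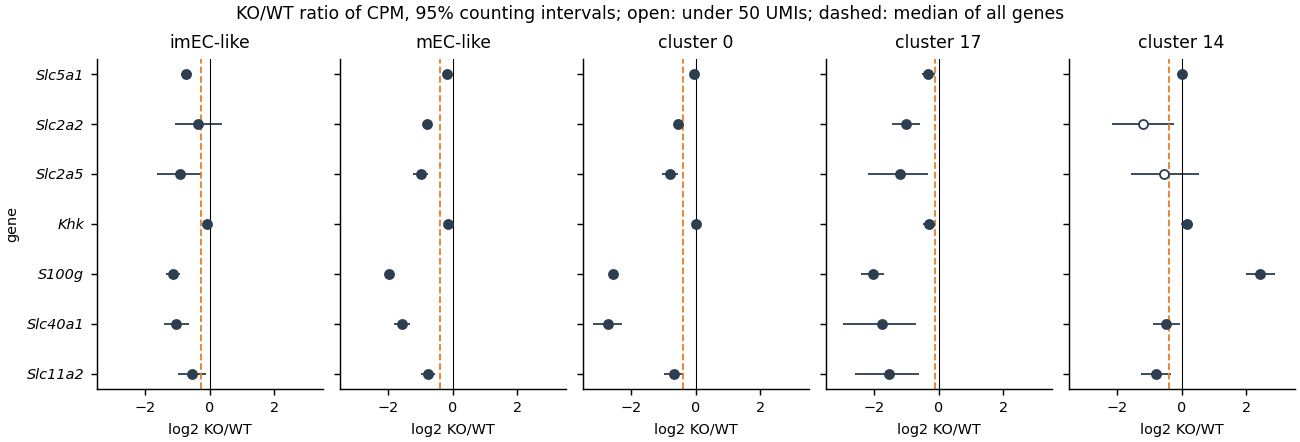
Log2 ratio of KO to WT CPM for 7 members in imEC-like cells, mEC-like cells and clusters 0, 17 and 14, with 95% counting intervals, open points under 50 UMIs and a dashed line at the median over all measured genes. S100g lies at -2.58 in cluster 0 and at 2.43 in cluster 14, and Slc5a1 and Khk lie near 0 in both.

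Genes of the distal gut differed with the group. In mEC-like cells the 12 distal enterocyte genes summed to 6421 CPM in WT and 21317 CPM in KO, 11 of them above 0 in log2 ratio. Fabp6 alone gave 73.0% of that sum in WT and 83.5% in KO, and without it the sums were 1734 and 3513 CPM, while the proximal genes summed to 21697 and 22598 CPM. Genes of the villus base summed to 21698 and 57527 CPM and those of the villus tip to 652 and 1488 CPM. Of the leukocyte genes Cd3e, Cd7 and Cd79a were at 0 in both groups, and the sum of the list (1681 and 3315 CPM) was almost wholly Cd74 and H2-Aa, which enterocytes can express. The stromal list summed to 0.73 and 0.16 CPM. The part of these other genes in the members' ratios was not tested.

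The mature cells were split by the share of proximal genes in their proximal plus distal UMIs, with bounds (below 10%, between, and above 90%) set after the values were seen. Since the distal genes themselves differed between the groups, a set need not hold like cells in WT and KO, and the values below describe the sets only. Distal cells made up 12.3% of WT and 25.1% of KO mEC-like cells, cells between 18.3% and 26.9%, and proximal cells 58.7% and 34.8%, and the others had too few of these UMIs. In proximal cells S100g was 610 CPM in WT (1013 cells) and 127 CPM in KO (506 cells), in cells between 77.5 and 21.3 CPM, and in distal cells 26.6 and 141 CPM. The log2 ratio of S100g was -2.27 in the proximal, -1.86 in the in-between and 2.41 in the distal set. With Fabp6 left out of the distal list, an alternative chosen after seeing the data, it was -2.29 in 1052 WT and 538 KO proximal cells and 2.21 in 53 and 106 distal cells, but -0.16 (-0.47 to 0.15) in the cells between. Slc40a1 was lower in all 3 sets, at 52.3 and 10.9 CPM in proximal, 13.7 and 5.65 CPM in between and 48.2 and 28.1 CPM in distal cells, and without Fabp6 in the list its distal ratio of -0.37 had an interval that included 0 (-1.32 to 0.65). Slc5a1 in proximal cells was 655 CPM in WT and 622 CPM in KO, and in distal cells 243 and 272 CPM. Slc2a2 in proximal cells was 247 and 187 CPM, a log2 ratio of -0.40 that is about as far below 0 as the median of all genes in that set (-0.37), whereas Slc2a5 (-0.64) and Slc11a2 (-0.64) had lower ratios. The members are in neither of the lists that set these bounds.

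**Figure D4:**
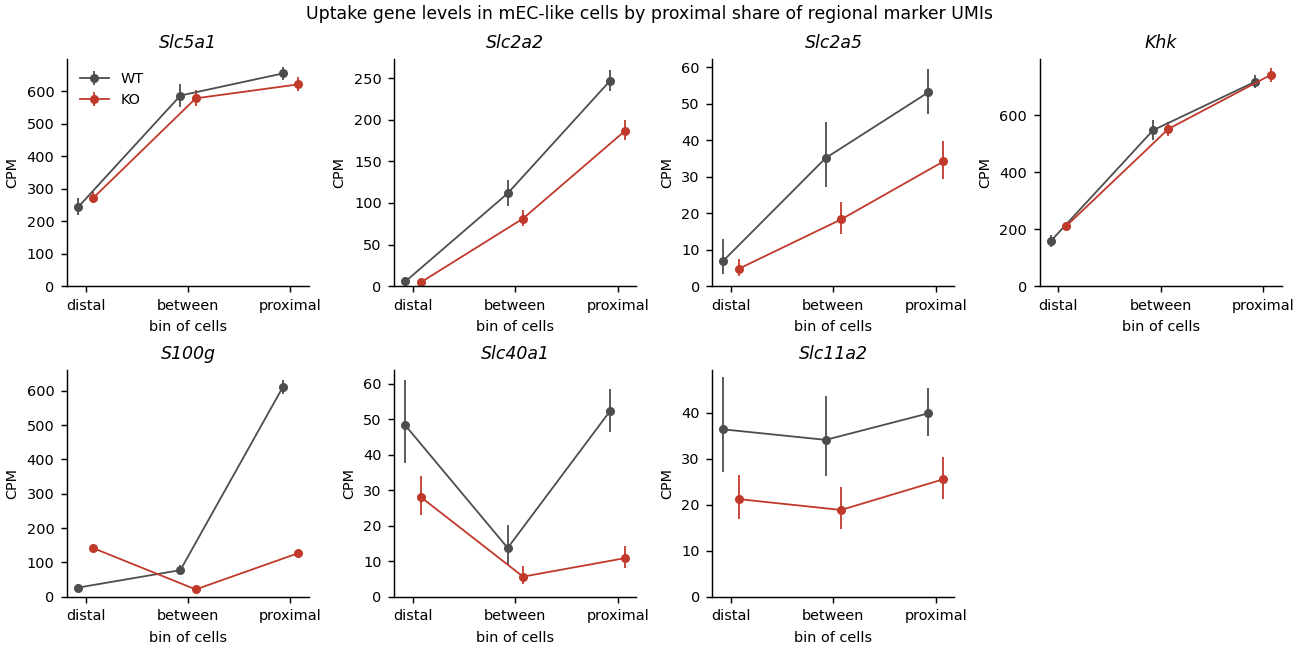
CPM of 7 members in distal, in-between and proximal mEC-like cells of WT (grey) and KO (red), with 95% Poisson intervals, each panel with its own axis from 0. S100g is at 610 CPM in WT and 127 CPM in KO proximal cells, and the order turns in distal cells (26.6 and 141 CPM).

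One cluster beside the named enterocytes also held sugar transcripts. Cluster 7 (280 WT and 916 KO cells, median 874.5 and 802.5 UMIs) had 5 mEC markers among its first 50 genes, but stayed unnamed because its cells were shallow and its first 10 genes held 0 of them. It had Slc5a1 at 398 CPM (328 to 478) in WT and 471 CPM (427 to 519) in KO, Khk at 143 and 188 CPM and S100g at 34.9 and 39.7 CPM. Slc2a2 (27.9 and 17.03 CPM on 8 and 15 UMIs) and Slc11a2 (24.4 and 19.3 CPM on 7 and 17 UMIs) had too few UMIs to give a direction. These cells entered none of the class values above.

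The wider pathways were read from lists of other sugar, iron and calcium genes, of which 44 were in the matrices and 35 had enough UMIs in mEC-like cells. Their median log2 ratio was -0.58, with 9 of 35 lower by at least 1 log2 unit, where 19.8% of all genes were, and 1 higher, where 1.85% were, so that the count lower was near that of all genes. Among sugar genes 15 of 16 were measured, with a median of -0.37, 3 lower (Txnip, Mlxipl and Slc5a9) and 0 higher. With at least 200 UMIs, the lowest ratios were those of Txnip, which restrains glucose uptake (115 and 48.6 CPM, -1.25), and Mlxipl, the sugar-sensing factor ChREBP (96.1 and 42.3 CPM, -1.18), while Slc5a4b (19.2 and 25.5 CPM) and the trehalase gene Treh (36.5 and 38.0 CPM) were the highest in ratio. Of iron genes 12 of 15 were measured, with a median of -0.83, 4 lower (Aco1, Slc39a14, Ireb2 and Epas1, the last a hypoxia-inducible factor at 11.9 and 4.84 CPM) and 0 higher, the lowest with at least 200 UMIs being Aco1, the iron-sensing regulator IRP1 (93.3 and 42.4 CPM, -1.14), and the metal carrier Slc39a14 (61.0 and 28.1 CPM, -1.12). The ferritin light chain gene Ftl1 went the other way (1208 and 1602 CPM, 0.41), although it has near-identical copies in the genome among which reads may be split. Of calcium genes 8 of 13 were measured, with a median of -0.51, 2 lower and 1 higher (Trpm6, a magnesium channel gene), the lowest with at least 200 UMIs being the channel kinase gene Trpm7 (44.1 and 18.3 CPM, -1.27) and Vdr, the vitamin D receptor (208 and 93.3 CPM, -1.16), whereas the tight junction gene Cldn15 stood at 285 and 316 CPM. Like the members, these lists lay below the median of all genes for iron and calcium and close to it for sugar. They were not set against genes of like exon length, with which the median of all genes moved.

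**Figure D5:**
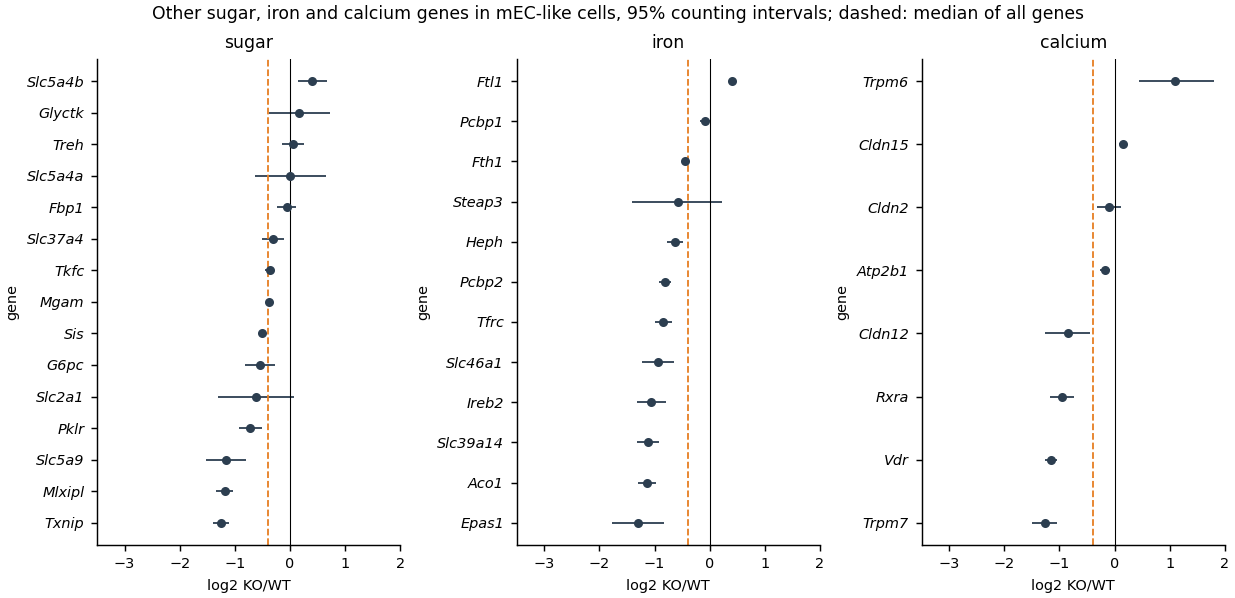
Log2 ratio of KO to WT in mEC-like cells for the other sugar, iron and calcium genes with enough UMIs, with 95% counting intervals and a dashed line at the median over all genes (-0.40). Most points of the iron panel lie left of that line, and Ftl1, Slc5a4b, Cldn15, Treh and Trpm6 are among the points right of 0.

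Over 41 points, each a cluster in 1 group with enough cells, log2 levels of the members were correlated with each other and with 8457 genes, as a description of points that share 2 libraries. Among members the closest pairs were Slc5a1 with Khk (Pearson r 0.90), Khk with S100g (0.88) and Slc5a1 with Slc2a2 (0.81), and Cybrd1 stood apart, with values from -0.48 to 0.12. The genes most like them were Tkfc for Khk (0.97), Exoc3l4 for Slc5a1 (0.95), Cyp3a25 for Slc2a2 (0.93), Slc35d1 for Slc11a2 (0.91), Aldh1a1 for S100g (0.90), C4bp for Cybrd1 (0.90), Idh1 for Slc40a1 (0.89) and Papss2 for Slc2a5 (0.83). Trpv6, with its 3 UMIs, had no close match (Heatr5a, 0.52).

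Some members share their place in the genome with other genes in GENCODE M21. S100g overlaps Ctps2, Slc2a2 overlaps 1700112D23Rik and Slc11a2 overlaps Gm5475, each on the opposite strand, and Slc5a1 overlaps 5033423K11Rik on the opposite and Gm15936 on the same strand. Whether counting used the strand is not given in the sources used here, so reads of such pairs may be shared.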

How the data were processed

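Per the file headers the authors made the matrices with Cell Ranger 4.0.0, while the submitters' processing notes name 2.1.1 and mouse build mm10. The deposited values were raw counts of UMIs per gene and barcode, 1 matrix for each of 2 groups (labels: 8 samples). The study's methods state default settings and a 3-prime kit, so values read transcript ends. 57 barcodes were in both matrices as deposited.

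Cells needed at least 200 genes and at most 30% mitochondrial UMIs. Canonical correlation in Seurat 5.3.0, run under R 4.3.3, aligned both matrices (2000 variable genes without the members, the other uptake genes and mitochondrial genes, 30 dimensions). A graph of 15 neighbours was clustered with leidenalg 0.10.2 at resolution 1. A cluster took the class with most markers among its first 50 genes by fold, with at least 3. It stayed unnamed where another class had as many or more markers among the first 10 genes, or where cells were shallow (3 times their median UMIs below the median of their matrix) and the first 10 genes held 0 markers of the class. No doublet caller was run, and doublets were kept; 1 alternative removed the deepest cells.

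UMIs were summed per class and group as CPM, with exact Poisson intervals, exact conditional binomial intervals of ratios and Clopper-Pearson intervals of shares at 95% (scipy 1.17.1). Ratios needed 50 UMIs, with a limit of 1 log2 unit. A count of 0 allows 3 UMIs. PCR duplicates were already collapsed into UMIs, and intervals cover counting error only. Ratio scripts were tested on simulated data. With 1 matrix per group no test was run.

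All 9 members are named, and of the other uptake genes the 2 highest and 2 lowest ratios per list with at least 200 UMIs in the class. The gene most like a member is that with the highest Pearson correlation of log2(CPM + 10) over clusters of at least 50 cells, among genes with 1000 UMIs. The members, lists, markers and alternatives were chosen with earlier results of these data known. Gene positions came from GENCODE M21 (27645 of 27998 identifiers matched). There were 13 planned and 5 added alternatives.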

Additional observations from a re-analysis of the deposited data

Results flagged for a closer look

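S100g stood out because its difference between the groups had opposite signs in 2 kinds of mature enterocyte. The log2 ratio of KO to WT was -2.58 in cluster 0 and -2.05 in cluster 17, whereas it was 2.43 in cluster 14, the cells led by Fabp6 and Slc10a2. The difference between these ratios was not tested, since each group was 1 pool. Beside it, the distal enterocyte genes within cluster 14 summed to 23114 CPM in WT and 53358 CPM in KO, and the proximal genes to 768 and 1280 CPM. In cluster 14 Slc5a1 (0.01) and Khk (0.17) differed little, and Slc40a1 (-0.48) and Slc11a2 (-0.80) were lower in KO.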

How the results depend on the processing

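No paired analysis was possible because each group was 1 matrix with no replicates. Of 125 values of whole comparisons 92 stayed within their counting interval or 1.5 times the count, 31 moved and 2 turned. Values of single genes held less well, with 74 of 137 within their interval, 56 moved and 7 turned. The members' median KO to WT ratio in mEC-like cells (-0.79) was -0.93 at resolution 0.5, -0.91 without integration, -0.48 with each matrix clustered alone, -0.9999 for cells picked by markers, -0.12 per cell, -0.19 as a mean of log2(CPM + 100) and, among alternatives chosen after seeing the data, -0.29 less the median of the length quartile and -0.68 for cluster 0. The 3 members lower by 1 log2 unit became 1 per cell, 0 on the log scale and 1 by length quartile. In imEC-like cells the median (-0.73) was -0.49 with each matrix alone, -0.061 on the log scale and 0.18 per cell. It could not be computed at resolution 0.5, where no such class was named. For cells picked by markers it was not computed, since that alternative redefined mature enterocytes only. The 6 members highest in KO mEC-like cells were 3 per cell.

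The median step from imEC-like to mEC-like cells in WT (1.45) was 1.64 at 15% mitochondrial UMIs, 1.61 at 500 genes, 1.61 at resolution 2, 1.76 without integration, 0.87 per cell, 0.19 on the log scale, 1.84 for cluster 0 and 1.65 without cluster 14. In KO (0.66) it was, in the same order, 1.12, 1.00015, 1.09, 1.01, -0.16, 0.10, 1.22 and 1.03, and it was 1.04 with each matrix alone and 0.85 without genes above 1% of UMIs.

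Slc5a1 turned to 0.33 with each matrix alone, 0.50 per cell and 0.11 by length quartile. Khk turned to 0.23, 0.53 per cell 0.0033 for cluster 0 and 0.0045 without cluster 14. S100g and Slc40a1 stayed below 0 in mEC-like cells under every alternative run. Causes of these shifts were not tested. Trpv6 and enterocyte Cybrd1 are limited by depth, and 1 pool per group limits every difference.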
